A study of Bos taurus with 30 samples.

Results

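Solute carriers are the membrane proteins that carry amino acids, sugars, ions, metals, nucleotides and other small molecules across the cell surface and across the membranes of organelles. The set described here holds the genes whose symbol has the form SLC, family number, A, member number. Of 165 such genes with a probe set (a group of short probes that reads 1 transcript) on the array, 98 were kept, against 7016 genes kept in all. The other 67 lay below the filter, which asks for a value at or above the median of the array in at least 3 arrays. Each gene was read by its probe set with the highest mean over the 30 arrays. Of the 98 genes, 69 lay at or above the array median in all 30 arrays and 15 did so in only 3 to 10 arrays. For 0 of them did these arrays all belong to 1 group of phenotype and time, and for 1 they all belonged to 1 phenotype. Just inside the filter, each with 3 arrays, were SLC30A1 (mean 6.69), SLC16A1 (6.67) and SLC2A4 (6.47). Just outside, with 2 arrays, were SLC18A2 (6.72), SLC6A4 (6.64) and SLC38A3 (6.49). The symbols SLC4A1AP and SLC7A6OS matched the rule although their proteins are not transporters, which makes 2 members of the 98 that are not carriers.

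Skin was biopsied where ticks fed on F2 cattle of a Gyr (Bos indicus) by Holstein (Bos taurus) cross, once before the ticks were put on (0 h) and again at 24 h and 48 h of infestation. The labels class 6 animals as resistant to ticks and 7 as susceptible, and all were infested, so no uninfested animal was followed over time. In time order, resistant animals gave 5, 6 and 5 arrays and susceptible animals 3, 6 and 5. The animals' ages and the tick are not given in the sources used here. Values are log2 signals, so a difference of 1 is a 2-fold difference in signal.

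In skin, amino acid and glucose carriers feed the dividing keratinocytes of the epidermis. Zinc carriers serve a tissue in which lack of zinc shows early, and leukocytes that enter a wound or a bite bring carriers of their own. Some carriers work only with a partner, as SLC7A5 does with SLC3A2 at the cell surface. Whole biopsies mix these cells, so fewer cells of a type and less RNA per cell cannot be told apart.

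The arrays resembled each other, with correlations of 0.833 to 0.972 between pairs over all probe sets kept. The array of resistant animal 1 at 48 h had the lowest mean of the 98 genes, at 8.68, and the highest value on the first principal component (65.6, the next array 38.3). Susceptible animal 11 at 48 h had a mean of 8.84, the lowest of its group. The keratinocyte markers KRT5 (12.15 to 14.82 over the arrays) and DSG1 (12.06 to 14.27) lay far above the array medians (7.17 to 7.40) on every array. Not all such markers did: the basal keratinocyte marker ITGB4 ran from 6.51 to 8.21. The labels number the animals, and 3 resistant 0 h arrays went against their numbers. Arrays 3, 4 and 5 at 0 h lay closest to the later arrays of animals 4, 5 and 6 (r = 0.888, 0.802 and 0.877) over probe sets that differ strongly between animals, against -0.37, 0.32 and -0.49 with their own numbers. The other 5 arrays at 0 h lay closest to their own number. Results that use the animal number are therefore given with the numbers as labelled and with these 3 moved. The move was chosen from these same data, so results with it are not a separate check.

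The clearest pattern among the carriers was in resistant skin at 48 h. SLC7A5, which takes up leucine and other large neutral amino acids, SLC35A3, which brings UDP-N-acetylglucosamine into the Golgi for glycan synthesis, and SLC2A5, a fructose transporter, had lower signal at 48 h than before infestation. The 3 genes passed the test over all probe sets in a fit with a fixed term for the animal, called paired below. They missed it when animals were not paired. The paired fit also used the 24 h arrays, so animals without a 0 h or a 48 h array entered it. Its estimates are therefore not the means of the within-animal changes from 0 h to 48 h. No solute carrier passed the test in any of the 11 comparisons of the unpaired limma fit.

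SLC7A5 read 10.68, 11.11, 11.31, 11.21 and 10.77 in the 5 resistant animals at 0 h, and 9.15, 10.08, 10.30, 10.47 and 10.52 at 48 h. Every array at 48 h lay below every array at 0 h, with animal 1 the lowest. At 24 h resistant skin read from 10.17 to 11.37 with a median of 10.65, and overlapped both. In susceptible skin SLC7A5 read 10.63, 10.16 and 10.51 at 0 h and 10.78, 10.83, 10.26, 9.84 and 10.70 at 48 h, with the groups overlapping. The resistant means were 11.02 ± 0.28 (SD, n = 5) at 0 h and 10.10 ± 0.56 (SD, n = 5) at 48 h. Unpaired, the difference was -0.91 ± 0.26 (SE; adjusted p = 0.27). Paired by animal, SLC7A5 fell by 1.02 ± 0.21 (SE; adjusted p = 0.0404), and with the 3 numbers moved by 1.03 ± 0.22 (adjusted p = 0.0415). Within animals 1, 2, 3 and 5 the changes were -1.52, -1.03, -1.02 and -0.30, lower in 4 of 4. With the 3 numbers moved, the changes within animals 1, 2, 5 and 6 were -1.52, -1.03, -0.75 and -0.25. The difference between the resistant and susceptible 48 h changes was -0.96 ± 0.39 (unadjusted p = 0.0204, adjusted p = 1), which missed the test.

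SLC35A3 read 10.30, 9.79, 10.40, 10.16 and 9.94 in resistant skin at 0 h and 9.65, 9.46, 9.33, 9.12 and 9.09 at 48 h. The groups did not overlap, and the 24 h arrays (9.59 to 10.18, median 10.01) overlapped those at 0 h and, at the low end, those at 48 h. Susceptible skin read 9.90, 9.69 and 9.70 at 0 h and 9.89, 9.88, 10.51, 9.38 and 10.35 at 48 h, where animal 11 was the lowest. Means were 10.11 ± 0.25 (SD, n = 5) and 9.33 ± 0.24 (SD, n = 5) in resistant skin, a difference of -0.78 ± 0.19 (SE; adjusted p = 0.27) without pairing. Paired by animal, SLC35A3 fell by 0.72 ± 0.16 (adjusted p = 0.0463), and with the 3 numbers moved by 0.77 ± 0.15 (adjusted p = 0.0412). The paired changes were -0.64, -0.33, -1.06 and -0.82, lower in 4 of 4 animals, and with the numbers moved -0.64, -0.33, -1.04 and -0.85. Its resistant and susceptible 48 h changes differed by -1.02 ± 0.29 (unadjusted p = 0.00159, adjusted p = 1).

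SLC2A5 read 7.17, 8.02, 6.65, 7.56 and 8.67 in resistant skin at 0 h and 5.75, 6.28, 5.80, 6.49 and 7.48 at 48 h. These groups overlapped, although the 4 animals measured at both times were each lower at 48 h. It is a dim probe set, at or above the array median in only 8 of the 30 arrays, and at 24 h it ran from 4.21 to 8.33 in resistant skin. Susceptible skin stayed between 5.98 and 7.35 at all times. The unpaired difference was -1.25 ± 0.50 (SE; adjusted p = 0.36). Paired by animal, SLC2A5 fell by 1.84 ± 0.37 (adjusted p = 0.0363), and with the 3 numbers moved by 1.57 ± 0.30 (adjusted p = 0.0401). Paired changes were -1.41, -1.74, -0.84 and -2.18, and with the numbers moved -1.41, -1.74, -1.07 and -1.19. Animal 4 has no 48 h array but entered the paired fit. There SLC2A5 changed by -3.34 from 0 h to 24 h, or by -2.44 with the numbers moved. Its resistant and susceptible 48 h changes differed by -1.19 ± 0.76 without pairing (unadjusted p = 0.127). Paired by animal they differed by -1.61 ± 0.58 (unadjusted p = 0.0125, adjusted p = 0.997), and both missed the test.

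**Figure D1:**
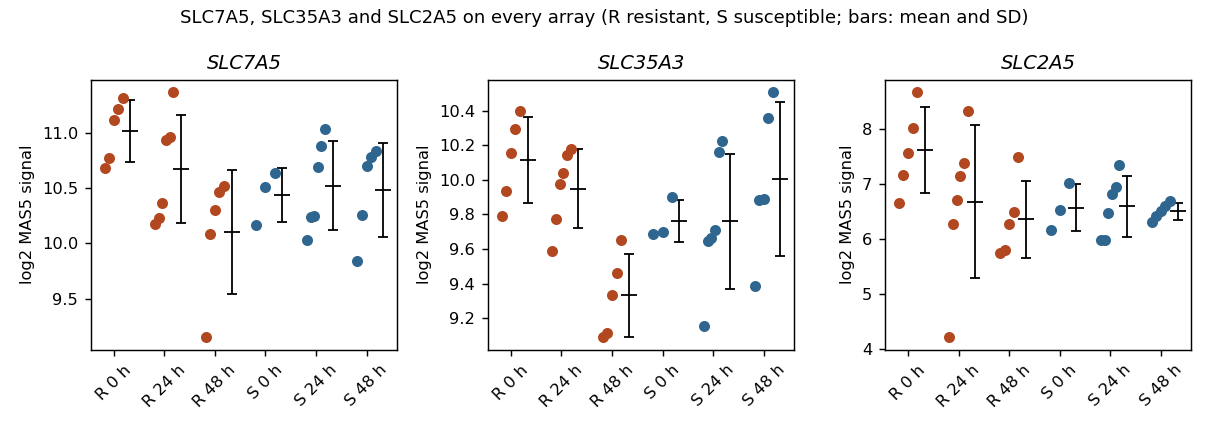
Log2 signal of SLC7A5, SLC35A3 and SLC2A5 on each of the 30 arrays (points), in 6 groups by phenotype (R resistant, S susceptible) and time, with the group mean and SD beside them. In resistant skin the 48 h points of SLC7A5 and SLC35A3 lie below all 0 h points, and those of SLC2A5 overlap them.

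The paired fit called 84 of 13809 probe sets (0.608%) and 3 of the 98 carriers; with the 3 numbers moved it called 108 (0.782%) and the same 3 carriers. The unpaired fit called 0 of either (0%). With the animal as a random block the test called 2 probe sets (0.0145%) and 0 carriers. Leaving out each array in turn moved the unpaired differences between -1.02 and -0.67 for SLC7A5, -0.86 and -0.71 for SLC35A3, and -1.53 and -0.99 for SLC2A5. The 3 paired calls depended on the setting. Quantile normalization left SLC2A5 and SLC7A5 called. Centring the arrays on their medians, dropping the filter, or fitting without an intensity trend left 0 carriers called, as did leaving out all arrays of resistant animal 1, or the resistant 0 h arrays 3, 4 and 5. Leaving out single resistant arrays gave 0 called carriers for animals 1, 2 and 5 at 0 h, animal 6 at 24 h and animals 1, 2, 5 and 6 at 48 h. In every fit with 0 called carriers, 0 to 17 probe sets were called in all. Leaving out animal 4 at 0 h, or animal 3 or 4 at 24 h, gave 1 carrier beside 17, 43 and 17 probe sets in all. Without animal 3 at 48 h there were 5 carriers among 288 called probe sets, and without animal 3 at 0 h 7 carriers among 458. The sign of the 3 genes did not change in any of these fits.

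Some cell type markers moved in the same comparison. Of 9 macrophage markers 8 were kept, and their mean lay between 9.52 and 10.36 in resistant skin at 48 h against 8.30 to 9.30 at 0 h. Of 7 basal keratinocyte markers 5 were kept, at 11.43 to 11.67 at 0 h and 9.35 to 11.95 at 48 h, where animal 1 was the lowest. The 3 kept of 8 differentiated keratinocyte markers ran from 11.56 to 12.28 at 0 h and from 10.45 to 11.81 at 48 h. Of 14 marker lists, 2 had groups that did not overlap: the macrophage list, and the endothelial list (5 of 6 kept) at 9.02 to 9.68 at 0 h and 9.68 to 10.18 at 48 h, which met at 9.68. Means were higher at 48 h than at 0 h for 8 of the 14 lists and lower for 6. Among overlapping lists, smooth muscle (4 of 5 kept, 10.10 and 11.10) and sebaceous gland (2 of 5 kept, 9.36 and 10.49) had higher means. So did muscle (2 of 8 kept, 7.98 and 9.16) and mast cell (3 of 6 kept, 7.65 and 8.46). Lower means included pigment cell (3 of 5 kept, 8.86 and 7.64) and sweat gland (3 of 7 kept, 10.13 and 9.79). The part of these cell types in the carrier results was not tested.

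Across the classes of carrier, the differences in resistant skin at 48 h against 0 h ran both ways. At an unadjusted p under 0.05, 10 of the 98 genes were lower, against 6.08% of all probe sets, and 4 were higher, against 4.95%. Medians were -0.06 over the carriers and -0.02 over all probe sets kept. Without each array in turn the carrier median lay between -0.12 and 0.01, so its sign depended on single arrays. Groups did not overlap for 6 carriers, against 1.98% of all probe sets. These were SLC7A5, SLC35A3, SLC35A2, SLC39A8 and SLC25A38, lower at 48 h, and SLC39A13, higher. SLC25A38 and SLC39A13 are named here because of that count, chosen after their values were seen. The 24 h arrays of SLC25A38 in resistant skin also lay below all its 0 h arrays. A further 24 probe sets read 22 of the 98 genes again, and 22 of these 24 had the same sign in this comparison. In the other 10 comparisons 12 to 18 of the 24 did, with 12 between phenotypes at 0 h and 18 at 48 h. SLC7A5, SLC35A3 and SLC2A5 had 1 kept probe set each and were not among the 22 genes.

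**Figure D2:**
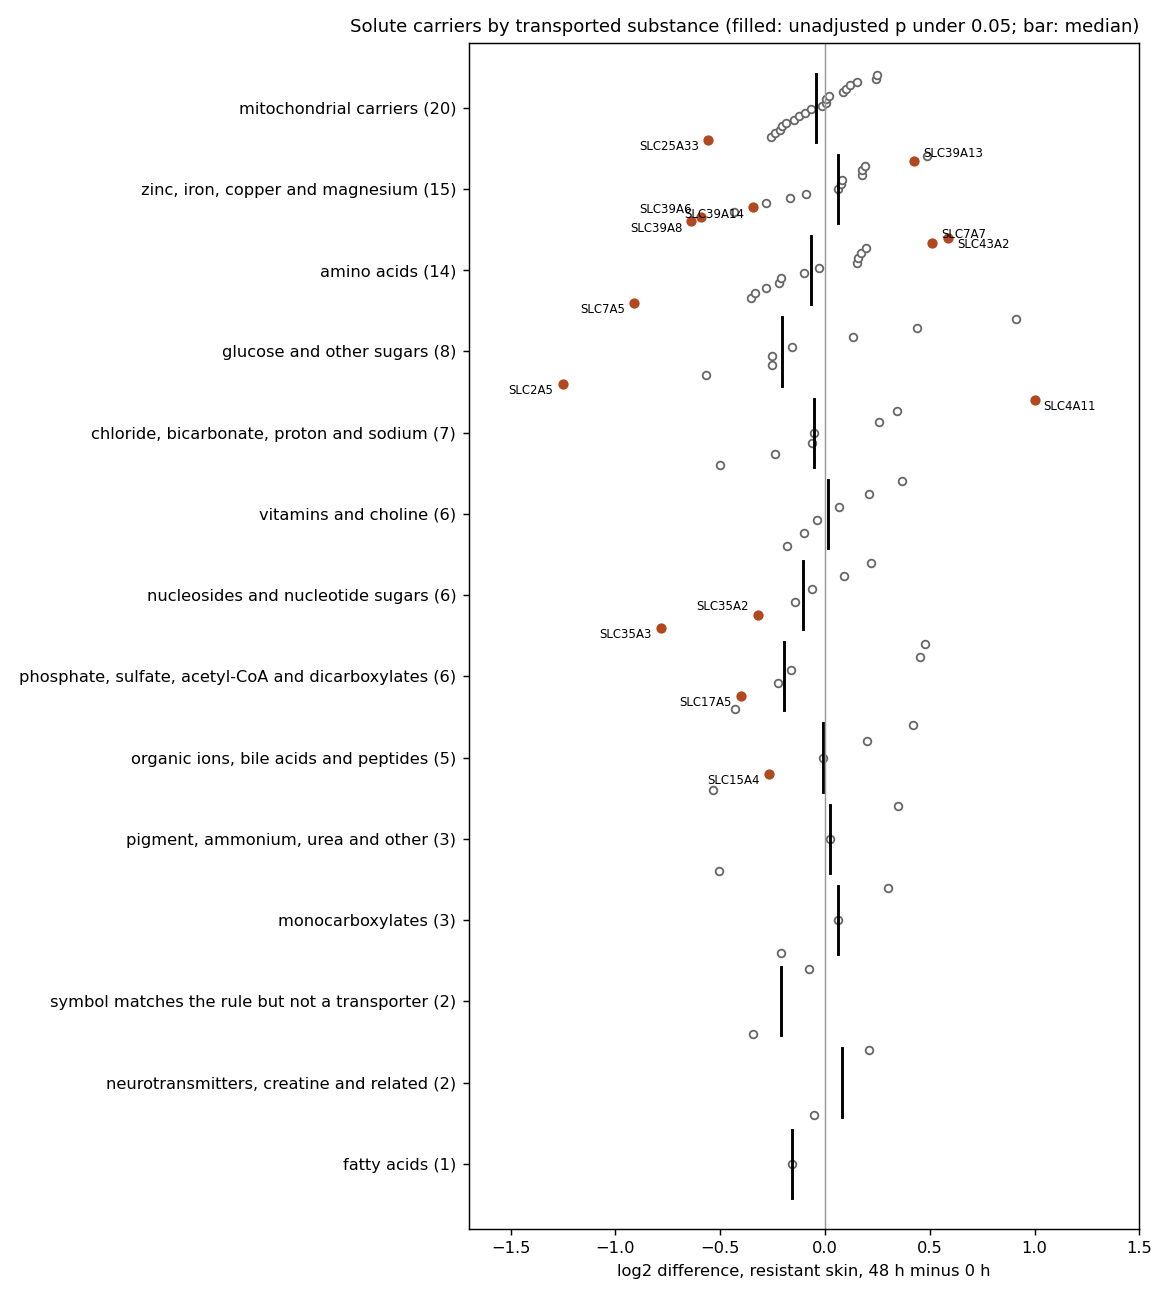
Log2 difference of each of the 98 genes in resistant skin at 48 h minus 0 h, without pairing, in classes by what the carrier moves (number of genes in parentheses); bars are class medians and filled points have an unadjusted p under 0.05. Class medians lie near 0, and SLC2A5, SLC7A5 and SLC35A3 lie far to the left.

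Among the 14 amino acid carriers, SLC7A5 stood beside carriers that went the other way. SLC7A7, which exports cationic amino acids in exchange for neutral ones and also pairs with SLC3A2, was higher by 0.51 ± 0.20 (SE; adjusted p = 0.35), at 8.14 ± 0.19 (SD, n = 5) and 8.65 ± 0.49 (SD, n = 5). The 0 h arrays of SLC7A7 lay between 7.88 and 8.39 and the 48 h arrays read 9.43, 8.74, 8.40, 8.13 and 8.53, so they overlapped. Without animal 1 at 48 h the difference of SLC7A7 was 0.32. SLC43A2, a facilitated neutral amino acid carrier, was higher by 0.59 ± 0.23 (adjusted p = 0.36). SLC3A2, the heavy chain that SLC7A5 and SLC7A7 share, ran from 9.50 to 10.40 at 0 h and from 8.74 to 10.45 at 48 h, a difference of -0.21 ± 0.28 (adjusted p = 0.81). The glutamine carrier SLC1A5 differed by -0.10 ± 0.24 and SLC38A2, a carrier of small neutral amino acids, by -0.03 ± 0.10. SLC38A2 varied little, with an SD of 0.139 over the 30 arrays.

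Of the 15 metal carriers, 3 were lower and 1 higher at an unadjusted p under 0.05, beside 6.08% and 4.95% of all probe sets. The zinc importers SLC39A6 and SLC39A8 were lower in resistant skin at 48 h, by -0.59 ± 0.21 (SE) and -0.64 ± 0.23, each with an adjusted p of 0.33. SLC39A8 read from 10.62 to 11.31 at 0 h and 9.70, 10.22, 10.52, 10.49 and 10.47 at 48 h, without overlap. SLC39A6 read from 12.70 to 12.94 at 0 h and 11.58, 11.90, 12.46, 12.75 and 12.35 at 48 h, with animal 5 within the 0 h range. A second SLC39A6 probe set differed by -0.79 (unadjusted p = 0.0361). SLC39A14, which carries zinc, iron and manganese, was at -0.34 ± 0.16, and SLC39A13, a zinc carrier of intracellular membranes that is known from connective tissue disease, at 0.43 ± 0.17, both named after their values were seen. A second SLC39A13 probe set differed by 0.03 (unadjusted p = 0.898). The other members of the class had unadjusted p above 0.05 in this comparison.

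Of the 20 mitochondrial carriers, 1 had an unadjusted p under 0.05, where 6.08% of all probe sets were lower and 4.95% higher. SLC25A33, a carrier of pyrimidine nucleotides into mitochondria, was lower by -0.56 ± 0.18 (SE; adjusted p = 0.31), and its second probe set by the same -0.56 (unadjusted p = 0.0801). The ADP/ATP carriers SLC25A4, SLC25A5 and SLC25A6 differed by 0.15 ± 0.18, -0.07 ± 0.11 and 0.00 ± 0.11. Sialin, SLC17A5, which moves sialic acid out of lysosomes, was at -0.40 ± 0.16 (adjusted p = 0.36). SLC15A4, a lysosomal peptide and histidine carrier, was at -0.27 ± 0.13. The UDP-galactose carrier SLC35A2 was at -0.32 ± 0.15, with 8.77 to 9.04 at 0 h and 8.34 to 8.77 at 48 h, groups that touched without overlapping. Among sugar carriers other than SLC2A5, SLC2A1, the glucose carrier of most dividing cells, differed by -0.25 ± 0.53. SLC2A4, the insulin-responsive glucose carrier, was at 0.91 ± 0.48. The sodium bicarbonate family member SLC4A11 read 5.07, 7.89, 7.53, 8.46 and 7.12 at 0 h and 7.99, 8.60, 8.04, 8.67 and 7.78 at 48 h (adjusted p = 0.39), with animal 1 far below the others at 0 h. Leaving out that array brought its difference down to 0.46.

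The first day gave little in resistant skin: 2 carriers had an unadjusted p under 0.05 at 24 h against 0 h, beside 4.72% of all probe sets. These were SLC15A4 at -0.31 ± 0.12 (SE) and SLC39A11, a zinc carrier, at 0.33 ± 0.14. SLC39A11 read 10.20 in resistant animal 1 at 24 h and 9.23 to 9.46 in the others, and without that array its difference was 0.20. From 24 h to 48 h, 14 had one, beside 9.65% of all probe sets, and 9 of these were lower, beside 4.88%. The median difference over this day was -0.11 over the carriers and -0.02 over all probe sets. Without each array in turn the carrier median lay between -0.13 and -0.05. SLC35A3 led again, at -0.62 ± 0.18 (adjusted p = 0.38), with 9.59 to 10.18 at 24 h and 9.09 to 9.65 at 48 h. SLC22A17, a receptor for lipocalin, was at 0.32 ± 0.12, with 24 h arrays from 7.76 to 8.28 and 48 h arrays from 8.15 to 8.31. The sugar phosphate carrier SLC37A2 was at 0.56 ± 0.23 and the peroxisomal carrier SLC25A17 at -0.31 ± 0.13. The 48 h response differed between phenotypes at an unadjusted p under 0.05 for 6 carriers, beside 2.93% of all probe sets, and the 24 h response for 1, beside 1.85%. The 6 were SLC35A3, SLC43A2, SLC7A5, SLC4A4, SLC37A2 and SLC25A33, each with an adjusted p of 1. For SLC4A4 the difference between responses was 1.07, and 0.63 without susceptible animal 11 at 0 h. All these comparisons share arrays, so they are not separate evidence for the same gene.

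Between resistant and susceptible skin at 48 h, 9 carriers had an unadjusted p under 0.05, against 10.1% of all probe sets, and 0 passed the test, against 0.0145%. Of the 98, 34 were higher in resistant skin, where 42.9% of all probe sets were. The smallest p-values were those of SLC35A3 at -0.67 ± 0.19 (SE) and of SLC33A1 at -0.55 ± 0.16, both with an adjusted p of 0.21. Without each array in turn SLC35A3 lay between -0.83 and -0.55, with adjusted p from 0.0632 to 0.61. SLC33A1 brings acetyl-CoA into the endoplasmic reticulum. It read 9.32, 9.64, 9.92, 9.54 and 9.54 in resistant skin and 10.07, 10.23, 10.43, 9.92 and 10.06 in susceptible skin, which met at 9.92 without overlapping. SLC2A8, an intracellular glucose carrier, was lower by -0.64 ± 0.24 (adjusted p = 0.36), with resistant arrays from 6.65 to 7.33 and susceptible arrays from 7.57 to 7.97. These were the 2 carriers whose groups did not overlap, against 1.19% of all probe sets.

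On the other side SLC4A4, the electrogenic sodium bicarbonate cotransporter, was higher in resistant skin by 0.95 ± 0.30 (SE; adjusted p = 0.26). It read 7.51, 7.52, 6.70, 7.46 and 7.30 in resistant and 6.51, 5.71, 5.91, 7.22 and 6.38 in susceptible animals, which overlapped through resistant animal 3 and susceptible animal 11. SLC4A4 was dim, at or above the array median in only 8 arrays. The proline carrier SLC6A20 was at 0.63 ± 0.25, or 0.40 with array weights, and SLC43A2 at 0.49 ± 0.23. The remaining carriers with an unadjusted p under 0.05 were SLC16A13 (-0.55 ± 0.25), the iron carrier SLC11A2 (-0.43 ± 0.20) and the non-transporter SLC7A6OS (-0.53 ± 0.20). The value of SLC16A13 was -0.32 without susceptible animal 9 at 48 h, and its 2 other probe sets differed by -0.43 and -0.13. For SLC7A6OS another probe set differed by 0.02.

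**Figure D3:**
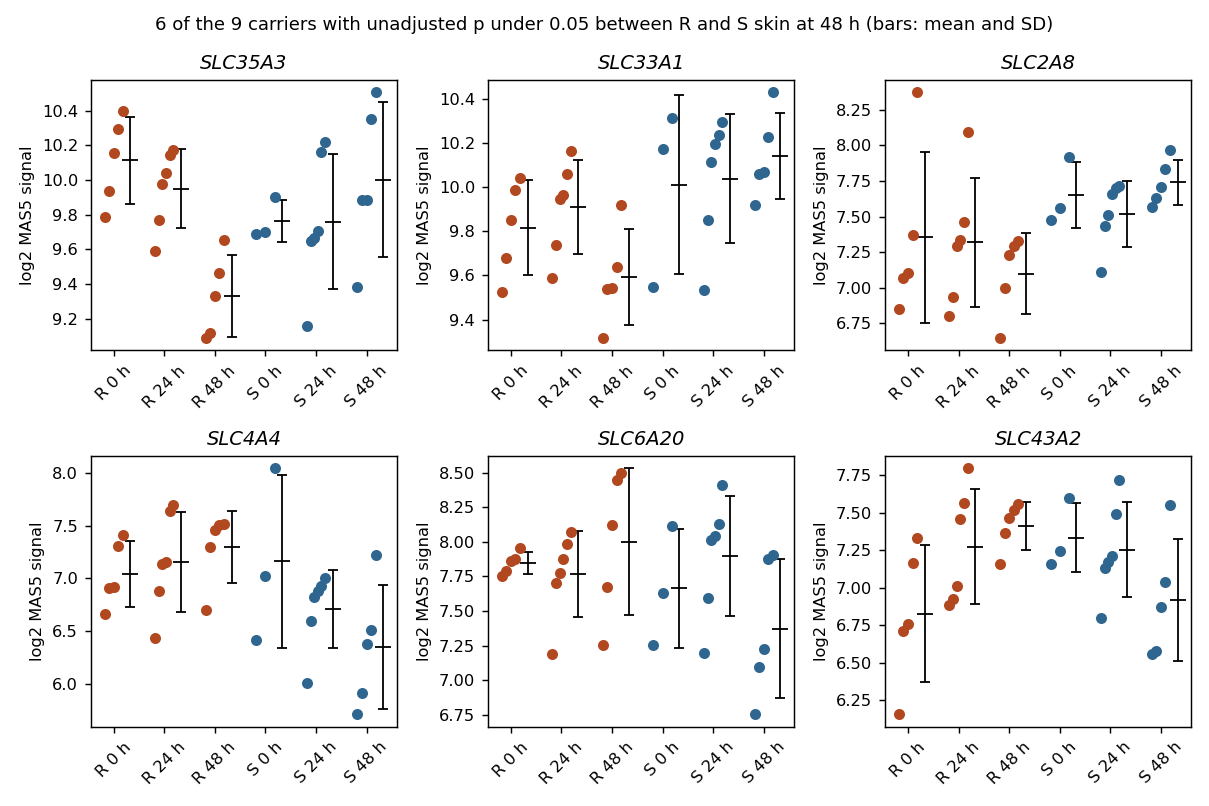
Log2 signal of SLC35A3, SLC33A1, SLC2A8, SLC4A4, SLC6A20 and SLC43A2 on each array (points) by phenotype (R, S) and time, with group mean and SD. At 48 h the R and S points of SLC33A1 and SLC2A8 do not overlap, and those of the other 4 genes do.

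Before infestation, 4 carriers had an unadjusted p under 0.05 between phenotypes, against 4.51% of all probe sets, and 7 had groups without overlap, against 4.62%. With only 3 susceptible arrays at 0 h, groups part easily. The 7 were SLC7A5, SLC31A1 and SLC6A15, higher in resistant skin, and SLC30A6, SLC11A2, SLC15A1 and SLC25A44, lower; SLC31A1, which takes up copper, and SLC25A44 are named after their values were seen. The Golgi zinc carrier SLC30A6 read 6.90, 7.13, 7.47, 7.16 and 7.64 in resistant skin and 8.13, 8.09 and 8.01 in susceptible skin, a difference of -0.81 ± 0.29 (SE; adjusted p = 1). SLC11A2 was at -0.58 ± 0.23, with resistant arrays from 7.16 to 7.89 and susceptible arrays from 7.91 to 8.46. The peptide carrier SLC15A1 was at -1.72 ± 0.64, but it was dim and reached the array median in only 4 arrays. SLC7A5 was also higher in resistant skin before infestation, without overlap, at 11.02 ± 0.28 (SD, n = 5) against 10.43 ± 0.24 (SD, n = 3).

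At 24 h, 4 carriers had an unadjusted p under 0.05, against 4.40% of all probe sets, and 0 had groups without overlap, against 0.167%. SLC25A4, the ADP/ATP carrier of heart and muscle, was at -0.46 ± 0.17 (SE), with resistant arrays from 10.01 to 10.81 (median 10.39) and susceptible arrays from 10.45 to 11.43 (median 10.88). SLC2A1 was at 1.19 ± 0.49, with resistant animals 1 and 4 at 10.95 and 11.16, while the other 4 resistant arrays lay from 9.23 to 9.52. The vesicular nucleotide carrier SLC17A9 was at -0.87 ± 0.36 and SLC1A4, a carrier of serine and alanine, at 0.59 ± 0.27, or 0.38 without resistant animal 6; all 4 had an adjusted p of 0.98. In susceptible skin the changes over time gave 1 carrier at 24 h, 1 at 48 h and 2 between 24 h and 48 h with an unadjusted p under 0.05, against 2.30%, 0.949% and 1.88% of all probe sets. These were SLC15A1 at -1.73 ± 0.62, SLC4A4 at -0.81 ± 0.35, and SLC39A1 (-0.30 ± 0.13) and SLC6A20 (-0.53 ± 0.24), each with an adjusted p of 1. The SLC4A4 difference was -0.37 without susceptible animal 11 at 0 h, and that of SLC6A20 was -0.81 when paired by animal.

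The share of a gene's variance that lay between the 13 animals had a median of 46.0% over the carriers and 47.6% over all probe sets, with 41.4% for no animal effect. The upper quartiles were 55.5% and 57.8%, and 1.02% of carriers reached 80%, against 1.58% of all probe sets. Among the carriers the share was highest for SLC35A5, a member of the nucleotide sugar carrier family, at 81.0%, followed by SLC25A4 (74.5%), the choline carrier family member SLC44A2 (70.7%), SLC2A1 (67.5%), the zinc carrier SLC39A7 (67.2%) and SLC30A6 (66.0%). With the 3 numbers moved these 6 had 81.6%, 75.8%, 68.8%, 74.2%, 66.9% and 70.5%, and the mitochondrial carrier SLC25A16, named after its values were seen, went from 62.4% to 81.4%. The numbers were moved for likeness between these same arrays, which tends to raise such shares. SLC35A5 read 10.89, 10.88 and 10.91 in susceptible animal 11 at the 3 times, and 10.44, 10.61 and 10.45 in animal 10. SLC2A1 read 12.14, 10.95 and 11.37 in resistant animal 1 and at most 10.07 in resistant animals 2, 3, 5 and 6. Resistant animal 4 lay above animal 1 at 24 h. The spread also differed between genes: the SD over the 30 arrays was lowest for the zinc carrier SLC39A9 (0.126) and highest for SLC5A1, a sodium-coupled glucose carrier (1.19), with a median of 0.367 against 0.321 over all probe sets.

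**Figure D4:**
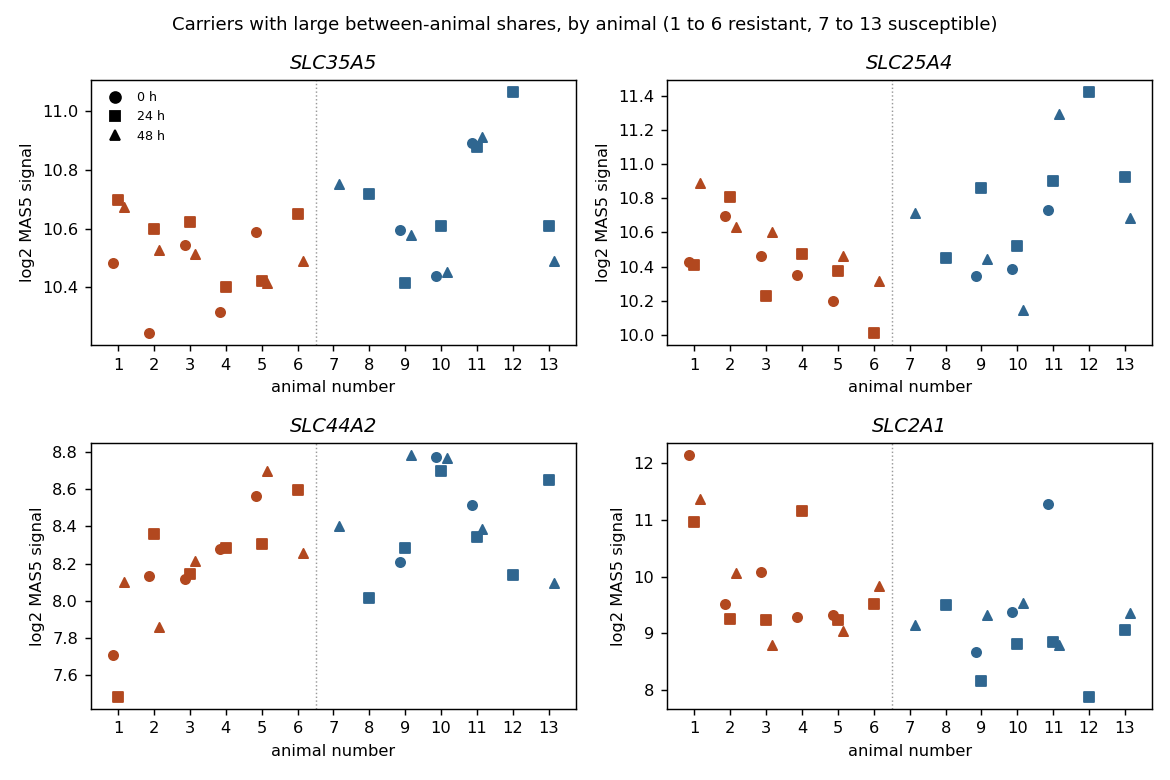
Log2 signal of SLC35A5, SLC25A4, SLC44A2 and SLC2A1 by animal number as labelled (1 to 6 resistant, 7 to 13 susceptible), with 1 point per array and a marker for each time. Points of 1 animal lie close together for SLC35A5, and resistant animal 1 lies above most others for SLC2A1.

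Carriers known from leukocytes or skin were looked up whatever their values. SLC11A1, SLC2A3, SLC6A6 and SLC39A4 lay below the filter, and SLC15A3, SLC40A1, SLC45A2, SLC24A5 and SLC7A11 were not analysed here. The lactate carriers SLC16A1 and SLC16A3 differed by 0.06 ± 0.51 (SE) and 0.30 ± 0.23 in resistant skin at 48 h against 0 h. The fatty acid carrier SLC27A4, needed for the skin barrier, was at -0.16 ± 0.48, and the chloride cotransporter SLC12A2 at -0.50 ± 0.26. SLC20A1, a phosphate carrier, was at -0.16 ± 0.12 and the nucleoside carrier SLC29A1 at 0.22 ± 0.25. Over the 12 arrays at 24 h SLC7A7 and the macrophage markers had r = 0.47 and rho = 0.31 (permutation p = 0.132, adjusted over 3 pairs 0.395), with r = 0.34 without the 2 arrays farthest from the median marker level. SLC2A4 with adipocyte markers had r = 0.09 and rho = -0.13, and SLC12A2 with sweat gland markers r = 0.08 and rho = 0.06 (permutation p = 0.757 and 0.793, adjusted 0.793 for both). The other 8 of 11 pairs could not be run, because the carrier or all but 2 of its markers lay below the filter or was not analysed.

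Genes that work with solute carriers were taken from 5 lists, and limma called 0 of them in either 48 h comparison, and 0 in the paired fit. The sodium pump keeps the gradient that drives many carriers. Of its 10 listed genes 5 were kept. At an unadjusted p under 0.05, 1 was higher and 1 lower, beside 4.95% and 6.08% of all probe sets. FXYD5, a regulator of the pump, was higher by 0.86 ± 0.26 (SE; adjusted p = 0.28) in resistant skin at 48 h against 0 h and ATP1B3, a beta subunit, was at -0.64 ± 0.23. Of the 9 genes of the amino acid response 6 were kept, and 0 were higher and 2 lower at an unadjusted p under 0.05, beside 4.95% and 6.08% of all probe sets: ATF4 at -0.30 ± 0.13 and DDIT4 at -0.38 ± 0.18. Of the 12 genes by which mTORC1 senses amino acids 10 were kept, with 1 higher and 2 lower at that level, beside the same shares: RHEB at -0.32 ± 0.11, RRAGA at -0.23 ± 0.08 and RRAGB at 0.35 ± 0.15. Of the 12 hypoxia and glycolysis genes 11 were kept, with 0 at that level over time, beside the same shares. At 48 h 3 were higher in resistant than in susceptible skin, where 4.62% of all probe sets were. These were PFKP at 1.01 ± 0.32, GAPDH at 0.44 ± 0.12 and LDHA at 0.30 ± 0.13. The last list held 13 genes, of transporter chaperones and regulators but also of metal handling. Kept were 6: BSG, NPTN, FTH1, FTL, STEAP3 and MT2A. At that level 1 was higher over time, beside 4.95% of all probe sets. This was FTH1, a ferritin chain, at 0.27 ± 0.11.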

How the data were processed

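Total RNA from skin biopsies was amplified and biotin labelled with a 3' IVT kit, per the labels' protocols. The authors deposited log2 signals made with MAS5, per the submitters' processing notes; its version is not given in these sources. The linear signals had a 2% trimmed mean of 500 in each array, and array medians were 7.17 to 7.40. The 24128 probe sets include 112 controls, which were dropped, and 13809 of the rest passed the filter. Symbols came from the array annotation, and all 98 were current. Groups and animal numbers came from the labels.

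A model of 6 group means was fitted to the 30 arrays with limma 3.58.1 (R 4.3.3; eBayes with an intensity trend), for 11 comparisons, two-sided, with Benjamini-Hochberg adjustment over 13809 probe sets and a threshold of 0.05. The animal number pairs arrays of the same animal, per the labels; of 24 same-number pairs, 16 had correlated deviations over 0.1 (-0.24 to 0.63, median 0.25). The fits with and without the animal term were also run on simulated arrays whose animal numbers were correct by construction. That run does not cover numbers that may be shifted, as at 0 h in resistant skin. It also gave the animals a larger share of the spread than the correlation of 0.143 within animals estimated here. Alternatives changed the normalization, filter, low values, spread, arrays and pairing. Array batches are not given in these sources. Marker pairs used 100000 permutations, or all orders for 6 arrays, with scipy 1.17.1; plots used matplotlib 3.10.9.

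The members and the gene lists were chosen with earlier results of these data known. Genes named were the members past the threshold in any fit, the smallest p-values of each comparison and class, the largest between-animal shares, the edges of the filter and a list of known carriers; some were left out. The number of arrays limits the precision.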

Additional observations from a re-analysis of the deposited data

Results flagged for a closer look

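Among groups of 4 to 10 arrays, 305 combinations of gene and group were checked for 1 array far from the others, and 21 were found where chance gives about 15.2, since chance picks about 1 in 20 groups. The mean of the 98 genes was low in 2 arrays: resistant animal 1 at 48 h (8.68, the others at least 8.92) and susceptible animal 11 at 48 h (8.84, the others 9.01 to 9.04).

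Susceptible animal 11 at 48 h was also apart for SLC17A9 (6.68, the others 7.59 to 7.74), SLC2A4 (8.04, the others 5.99 to 6.35), SLC39A6 (11.64, the others 12.74 to 12.96), SLC39A8 (9.75, the others 10.46 to 10.73) and SLC4A1AP (8.30, the others 8.78 to 8.95). At 48 h, SLC16A1 was low in susceptible animal 9 (2.95, the others 6.38 to 6.97), SLC66A2 in susceptible animal 10 (8.07), SLC27A4 in resistant animal 1 (4.37, the others 6.44 to 7.22) and SLC4A4 in resistant animal 3 (6.70). SLC39A7 was high in resistant animal 2 at 48 h (10.49).

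At 24 h, resistant animal 4 was high for SLC16A3 (9.37) and low for SLC1A5 (9.23), resistant animal 1 was high for SLC39A11 (10.20), and susceptible animal 9 was low for SLC38A2 (12.73). At 0 h, SLC2A1 was high in resistant animal 1 (12.14, the others 9.29 to 10.07). SLC15A1 was low (4.76) and SLC16A13 high (9.22) in resistant animal 2, SLC15A4 was low in resistant animal 3 (9.75) and SLC6A8 in resistant animal 5 (9.05).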

How the results depend on the processing

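The counts of called carriers were 0 in the unpaired fit and stayed 0 under array weights, median centring of arrays, quantile normalization, no filter, no intensity trend, an offset of 16, only the arrays of the groups compared, the animal as a random block, and without each array. The animal as a fixed replicate block gave 3 called carriers in resistant skin at 48 h against 0 h, and 3 with the 3 numbers moved; the block changed no other call. With that block, chosen alternatives added after the data were seen gave 0 with centring, 0 without the filter, 0 without the trend, 0 without resistant animal 1, 0 without resistant 0 h arrays 3, 4 and 5, and 0 to 7 without single resistant arrays; the cause was not tested. The median between-animal share was 51.3% with the 3 numbers moved and 40.0% over animals with several arrays. The 51.3% is no separate check, since the move was chosen for likeness between these same arrays. The 40.0% leaves out the 3 animals with 1 array. The 41.4% for no animal effect was computed for all 13 animals and is not its reference. SLC7A7 and macrophage markers had r = 0.86 in resistant arrays alone (exact permutation p = 0.0167, n = 6) and -0.30 in susceptible arrays (exact p = 0.583, n = 6). Both p-values are unadjusted, and 0.0167 was the smallest of those within phenotypes over the 3 pairs. Without each array in turn the r of SLC7A7 over both phenotypes was 0.26 to 0.57. SLC2A4 and adipocyte markers had r = -0.30 without the 2 farthest arrays, -0.19 in resistant arrays, and -0.42 to 0.35 without each array; SLC12A2 and sweat gland markers had -0.065 to 0.28. For single genes, 1 direction reversed: SLC7A6OS between phenotypes at 48 h, at 0.022 by another probe set.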
